A study of Mus musculus with 8 samples.

Results

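Mouse myeloid cells carry families of paired immunoglobulin-like receptors on their surface, and 9 genes of 3 such families are described here: *Pirb*, *Pira2* and *Pira12* (paired Ig-like receptors), *Lilrb4a* and *Lilrb4b*, and *Cd300a*, *Cd300lf*, *Cd300lb* and *Cd300ld*. They were chosen by name, as 9 of the 32227 genes counted. Their unique molecules (UMIs) were read in 104843 of 119053 cells, namely those that a marker gate assigned to microglia, macrophages, monocytes, neutrophils or dendritic cells. The cells came from the brains of 8 male C57Bl/6J mice aged 5 to 6 months by their labels, with 1 PIPseq library per mouse. An intraperitoneal injection of saline (4 mice) or of lipopolysaccharide from *E. coli* 0111:B4 at 15000000 EU/kg (LPS, 4 mice) was given 24 h earlier. In each group 2 brains were dissociated with DMSO alone and 2 with transcription and translation inhibitors (actinomycin D, triptolide and anisomycin), and CD45+ cells were taken by magnetic separation. The brains were not perfused, so cells of the circulation could be included.

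Paired receptors come in inhibitory and activating forms with much the same outer part. The inhibitory forms carry tyrosine motifs (ITIMs) in their tails that recruit the phosphatases SHP-1 and SHP-2, whereas the activating forms lack them and couple to adaptors such as the Fc receptor gamma chain or DAP12. PirB binds MHC class I and, on neurons, myelin proteins such as Nogo. PIR-A proteins pair with the Fc receptor gamma chain. *Lilrb4a* encodes the ITIM-bearing gp49B and *Lilrb4b* its close relative gp49A, which lacks the ITIMs. CD300 receptors bind lipids that are exposed on dying cells, such as phosphatidylserine. CD300a and CD300lf (CLM-1) bear ITIMs, and CD300lb (CLM-7) and CD300ld (CLM-5) are activating forms.

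Genes within each family are close copies, and this sets how far each count can be assigned to 1 gene. In the aligned coding sequences of the GENCODE annotation (GRCm38, another build than that of the counts), *Pirb* and *Pira2* were 95.3% identical and *Pira2* and *Pira12* 97.9%. *Lilrb4a* and *Lilrb4b* were 96.0% identical over 910 aligned bases, of 335 and 303 codons in all. *Cd300lf* and *Cd300ld* were 84.6% identical, and the other pairs of CD300 genes 62.3 to 68.9%. PIPseq reads lie near the 3′ end of a transcript. Among windows of 50 bases in the last 500 bases of the transcript, 62.5% of those of *Pira12* and 42.6% of those of *Lilrb4a* also occurred in another counted gene. The gene that shared most windows was *Pira2* for *Pira12* and *Lilrb4b* for *Lilrb4a*. For the other 7 genes the shared fraction was at most 3.33%. Counts of *Pira12* and *Lilrb4a* are therefore uncertain as to which copy they came from. Reads of these genes may also have been counted to *Pira2* and *Lilrb4b*, so the counts of those carry the same caveat.

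Promoters of RefSeq (GRCm38.p6) were on hand for 6 of the 9 genes, and not for *Pira12*, *Lilrb4a* and *Lilrb4b*. Shown are the 250 bases before the start of 4 genes, as *Pirb* and *Pira2* share a promoter almost letter for letter (97.7% identical over 222 aligned bases) but drew different proportions of their UMIs from microglia, while *Cd300ld* and *Cd300lf* lie on the same chromosome and moved in opposite directions in macrophages. Capitals mark GAGGAAGT, a core bound by PU.1, the myeloid lineage factor. The regions are chr7:3720383-3720632 for *Pirb*, chr7:3845052-3845301 for *Pira2*, chr11:114989887-114990136 for *Cd300ld* and chr11:115133993-115134242 for *Cd300lf*, all on the minus strand and printed 5′ to 3′.
Pirb: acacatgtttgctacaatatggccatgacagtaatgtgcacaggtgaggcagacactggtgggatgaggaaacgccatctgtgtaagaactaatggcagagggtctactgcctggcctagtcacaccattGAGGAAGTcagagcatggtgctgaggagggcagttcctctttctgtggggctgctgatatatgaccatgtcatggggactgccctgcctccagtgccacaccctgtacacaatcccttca
Pira2: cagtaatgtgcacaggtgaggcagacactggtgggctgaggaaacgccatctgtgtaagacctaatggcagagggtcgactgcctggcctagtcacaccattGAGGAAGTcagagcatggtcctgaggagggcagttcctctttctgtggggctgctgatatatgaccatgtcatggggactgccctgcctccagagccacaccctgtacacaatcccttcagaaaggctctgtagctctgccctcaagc
Cd300ld: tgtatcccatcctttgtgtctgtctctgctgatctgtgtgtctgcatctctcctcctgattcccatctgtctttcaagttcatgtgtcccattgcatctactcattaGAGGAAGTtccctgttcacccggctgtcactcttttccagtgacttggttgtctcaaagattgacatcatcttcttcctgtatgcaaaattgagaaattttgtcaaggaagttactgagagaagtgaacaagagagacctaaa
Cd300lf: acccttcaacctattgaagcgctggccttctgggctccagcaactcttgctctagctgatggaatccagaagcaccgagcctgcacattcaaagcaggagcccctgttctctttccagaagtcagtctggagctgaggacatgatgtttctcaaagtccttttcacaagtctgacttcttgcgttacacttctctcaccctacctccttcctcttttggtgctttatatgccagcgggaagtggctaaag
With both strands searched, GAGGAAGT lay 112 bases before the start of *Pirb*, 140 before that of *Pira2* and 135 before that of *Cd300ld*, and it occurs in 2.44% of the 27025 RefSeq promoters of this length. A search for letters of an interferon regulatory factor motif (GAAANNGAA, 7.16% of promoters) found a match on the minus strand of the *Cd300lf* window, and one for a C/EBP motif (TTGCNNAA, 9.55%) found a match in that of *Cd300a*. Neither the letters TGANTCA (AP-1, 6.87%) nor GGANTTNCC (NF-kB, 3.09%) were in any of the 6 windows. These matches describe letters in a window only.

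The libraries held 90352359 to 141182123 UMIs each and 12039 to 17364 cells within the limits. Microglia were by far the most numerous class, with 45202 saline and 45499 LPS cells. There were 2938 and 2554 macrophages, 1112 and 4806 monocytes, 455 and 1565 neutrophils, and 365 and 347 dendritic cells. The rarest sums set the limits: 1 saline library with inhibitors (replicate 1) held 42 neutrophils with 82507 UMIs, and sums of dendritic cells held 189721 to 663317 UMIs. Markers of each class were present in it, but their levels shifted with LPS. Microglial markers made up 38560 to 40680 CPM (UMIs scaled to a common total for all sums) of the saline microglia sums and 6653 to 7836 of the LPS sums, where LPS macrophages had 938.5 to 1299. In the microglia sums monocyte markers went from between 46.8 and 62.5 to between 172 and 217 CPM, and neutrophil markers from between 371 and 528 to between 844 and 928. In macrophages their own markers went from between 16200 and 19020 CPM with saline to between 4272 and 4774 with LPS, monocyte markers from between 234.2 and 316.2 to between 928.3 and 1557, and neutrophil markers from between 214.5 and 369.4 to between 721.1 and 890.2. In dendritic cells *Cd209a*, a marker of conventional ones, stood at 911 to 1065 CPM in saline and 0 to 19.5 in LPS libraries, and *Ccr7*, a marker of mature ones, at 85.9 to 294 and 2812 to 4513. Monocyte markers lay between 8008 and 8836 CPM in saline monocytes and between 6472 and 7769 in LPS monocytes. Saline monocytes held primary granule transcripts (*Mpo*, *Elane* and *Prtn3*) at 93.2 to 13520 CPM, against 179 to 216 in LPS monocytes. In the saline DMSO sums of monocytes these transcripts, at 9229 and 13520 CPM, exceeded the monocyte markers (8008 and 8836). In neutrophils these transcripts lay between 0 and 11470 CPM with saline and between 38.25 and 316.1 with LPS, the granule transcripts *Ngp*, *Camp* and *Ltf* of immature neutrophils at 54830 to 100900 and 29280 to 36750, and microglial markers at 2221 to 6593 and 786.5 to 1377. Microglial markers were also lower with LPS in monocytes (1673 to 3182 and 537 to 747 CPM), dendritic cells (2219 to 4176 and 631 to 1273) and macrophages (7242 to 7495 with saline). Neutrophil markers in monocytes went from between 1426 and 6035 to between 710.5 and 1054 CPM. The part of these shifts in the results that follow was not tested. Libraries shared 0 to 25 cell barcodes per pair. CPM values relate to the UMIs of the class in that library, and since no value is corrected for length, levels are compared between classes and conditions and not between genes.

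LPS changed most of these genes in most myeloid classes, and in both directions. Of the 45 combinations of gene and class 38 had enough UMIs to be tested, and 34 of these passed edgeR's quasi-likelihood test at an adjusted p (Benjamini-Hochberg over all genes tested in the class) under 0.05. Of these, 24 rose and 10 fell. In microglia 7 of 9 genes rose and 2 fell, where 30.1% of all 20282 genes tested were called higher and 35.4% lower. The 7 include *Pira12*, which could no longer be fitted there with the expected free RNA subtracted. In macrophages 5 of 7 rose and 2 fell, beside 25.7% and 27.4% of all genes. In monocytes 6 of 9 rose and 3 fell, beside 13.6% and 15.5%. In neutrophils 6 of 9 rose and 2 fell, beside 11.5% and 10.7%. In dendritic cells 0 of 4 rose and 1 fell, beside 18.9% and 18.0%, and no more than 4 genes passed the filter on low counts there. *Pirb*, *Pira2*, *Lilrb4a*, *Lilrb4b* and *Cd300lf* were called higher in each of the other 4 classes. For *Pira2*, *Lilrb4b* and *Cd300lf* the call was least firm in neutrophils. There *Pira2* and *Lilrb4b* lost the call with inhibitor libraries only (log2 fold changes 0.91 and 0.81, adjusted p = 0.294 and 0.19) and with the expected free RNA subtracted (1.41 and 1.43, adjusted p = 0.114 and 0.0597), and *Cd300lf* lost it with inhibitor libraries only (1.19, adjusted p = 0.0882). Free RNA was estimated at 47.9% and 52.0% of the UMIs in 2 of the LPS neutrophil sums and at no more than 27.7% in the other 6. In monocytes it was 30.9 to 41.0% with saline and 18.8 to 28.4% with LPS.

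**Figure D1:**
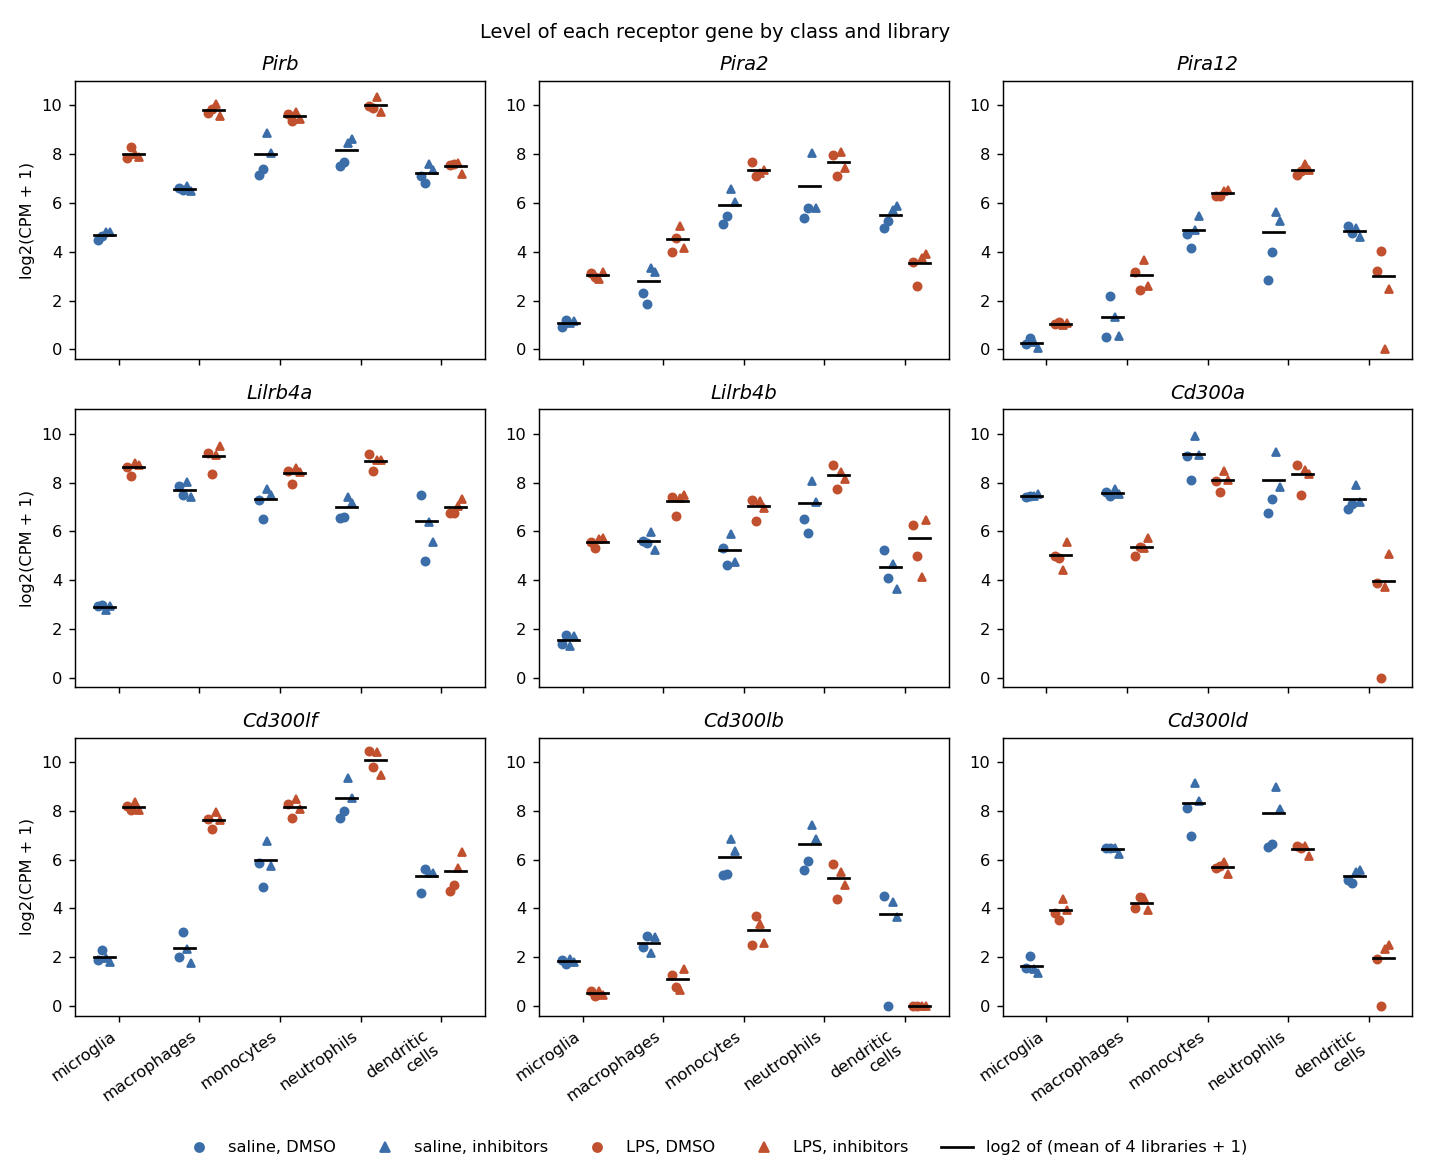
Level of the 9 receptor genes in each library, as log2(CPM + 1) of the summed UMIs of a class (y axis), by cell class (x axis). Saline libraries are blue and LPS libraries orange, circles are DMSO and triangles inhibitor libraries, and bars mark the log2 of the mean of 4 libraries plus 1. In microglia *Lilrb4a* and *Cd300lf* are near the bottom of the axis in saline libraries and well above it in LPS libraries.

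Fold changes are given after scaling by the trimmed mean of M-values, under which the median change over all genes was -0.19 on the log2 scale in microglia, -0.05 in macrophages, -0.08 in monocytes, -0.02 in neutrophils and 0.00 in dendritic cells. With library size alone the median was -0.95 in microglia, -0.42 in macrophages, -0.22 in monocytes, -0.11 in neutrophils and -0.17 in dendritic cells, so a fitted microglial fold change is larger on the positive side than the ratio of the CPM values. The balance of all calls moved with it, from 6111 up and 7187 down to 2876 and 13721 in microglia, from 2713 and 2885 to 1628 and 4666 in macrophages, from 1598 and 1821 to 1175 and 2163 in monocytes, and from 825 and 783 to 639 and 984 in dendritic cells. No LPS call of the 9 genes and no direction among the calls changed under this scaling. In bulk sums such as these, fewer cells of a type within a class and less RNA per cell cannot be told apart. Values are listed in the order DMSO replicates 1 and 2, then inhibitor replicates 1 and 2.

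*Lilrb4a*, the ITIM-bearing member of its pair, rose in microglia from a level near 0 to that of the macrophages. Saline microglia had 6.58, 6.95, 5.76 and 6.74 CPM, and LPS microglia 402, 309, 451 and 425. Every LPS library lay far above every saline library (log2 change 6.68, SE 0.19, adjusted p = 9.87e-11). In macrophages the same gene was already high without LPS, at 232, 179, 256 and 168 CPM, and it stood at 590.2, 328, 554 and 718 with LPS. These groups did not overlap either, but the step was smaller (log2 change 1.75, SE 0.20, adjusted p = 4.5e-06). In monocytes *Lilrb4a* went from between 89.7 and 212 to between 243 and 389.9 CPM (log2 change 1.22, SE 0.22, adjusted p = 0.00132). In neutrophils it went from between 93.2 and 169.7 to between 359 and 571 CPM (log2 change 2.09, SE 0.25, adjusted p = 3.54e-05). Dendritic cells overlapped, with 26.4 to 181 CPM in saline and 106 to 162 in LPS libraries (log2 change 0.60, SE 0.41, adjusted p = 0.27). That value rested on 1 saline library: without DMSO replicate 1, at 181 CPM, the log2 fold change was 1.21 (adjusted p = 0.0107). When the expected free RNA was subtracted, the monocyte call was lost (log2 fold change 0.58, adjusted p = 0.146), whereas in microglia the change came to 8.21.

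*Lilrb4b*, the relative without ITIMs, was called higher in the same 4 classes, with counts that may include reads of *Lilrb4a*. It had 1.63, 2.32, 1.45 and 2.25 CPM in saline microglia and 45.6, 39.1, 50.3 and 51.7 in LPS microglia. The groups were wide apart (log2 change 5.40, SE 0.21, adjusted p = 6.58e-10), and the LPS level was above that of LPS endothelial cells (4.61 CPM) but did not exceed that of LPS T-cells (72.2 CPM) or NK cells (74.1 CPM). Free RNA of the LPS libraries held *Lilrb4b* at 43.2 to 74.8 CPM. It made up an estimated 14.9 to 30.4% of the UMIs of LPS T-cells and 6.72 to 26.8% of those of LPS NK cells. Whether these cells carry the transcript themselves was not tested. In macrophages *Lilrb4b* rose from between 36.6 and 61.9 to between 99.2 and 180.5 CPM (log2 change 2.04, SE 0.18, adjusted p = 3.29e-07), and in monocytes from between 23.3 and 58.5 to between 84.5 and 156 (log2 change 1.95, SE 0.25, adjusted p = 0.000129). In neutrophils the ranges overlapped, at 60.0 to 267 and 212 to 424 CPM, although the test was passed (log2 change 1.46, SE 0.34, adjusted p = 0.00554). The 266.6 CPM at the top of the saline range came from the library with 42 neutrophils. Dendritic cells held 40 saline and 56 LPS UMIs of *Lilrb4b*, too few for the test.

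*Cd300lf*, an ITIM-bearing receptor of the CD300 family, had the largest rise of the 9 genes in microglia, macrophages and monocytes. Saline microglia had 2.64, 3.90, 2.89 and 2.45 CPM, and LPS microglia 296, 261, 329.7 and 265. No saline library came near an LPS library (log2 change 7.35, SE 0.19, adjusted p = 5.86e-11). Macrophages showed the same picture, from 3.04, 7.09, 4.06 and 2.35 CPM to 199.5, 154, 249 and 194. Again the groups were far apart (log2 change 6.05, SE 0.23, adjusted p = 8.34e-11). Monocytes rose from between 28.4 and 109 to between 207 and 362 CPM (log2 change 2.37, SE 0.30, adjusted p = 0.000104). Neutrophils, which carried the gene without LPS, rose from between 208 and 642 to between 702 and 1394 CPM (log2 change 1.75, SE 0.33, adjusted p = 0.00117). In dendritic cells the ranges of 23.7 to 47.4 and 25.0 to 78.4 CPM overlapped (log2 change 0.32, SE 0.37, adjusted p = 0.549).

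*Pirb*, the inhibitory member of the PIR family, rose in the same 4 classes. Microglia had 21.5, 24.1, 26.6 and 27.2 CPM in saline libraries and 226, 313, 258 and 238 in LPS libraries. The lowest LPS library was well above the highest saline library (log2 change 4.13, SE 0.16, adjusted p = 8.45e-10). Macrophages had 96.8, 91.2, 103 and 89.2 CPM with saline and 832, 918, 1054 and 763 with LPS, also without overlap (log2 change 3.58, SE 0.14, adjusted p = 9.56e-11). In monocytes the level went from between 141 and 460.2 to between 659 and 842 CPM (log2 change 1.68, SE 0.30, adjusted p = 0.0012), and in neutrophils from between 183 and 394 to between 842 and 1288 (log2 change 1.98, SE 0.29, adjusted p = 0.000168). Dendritic cells had 138, 111, 193 and 162 CPM with saline and 186, 193, 199 and 143 with LPS. These values overlapped and their difference did not pass the test (log2 change 0.35, SE 0.23, adjusted p = 0.254).

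*Pira2* and *Pira12*, activating relatives of *Pirb*, had their highest mean levels with LPS in neutrophils and monocytes. *Pira2* in monocytes had 34.7, 43.8, 93.2 and 65.3 CPM with saline and 201, 136, 150.3 and 164 with LPS. All LPS values were higher (log2 change 1.58, SE 0.25, adjusted p = 0.000495). In microglia it stayed low in absolute terms, at 0.872 to 1.30 and 6.38 to 7.90 CPM, and the groups were apart (log2 change 3.46, SE 0.20, adjusted p = 1.54e-08), but the LPS level was close to that of LPS T-cells (6.85 CPM) and B-cells (5.87 CPM). Macrophages went from between 2.66 and 9.13 to between 14.9 and 32.6 CPM (log2 change 2.14, SE 0.33, adjusted p = 6.86e-05). Neutrophils overlapped through the library with 42 neutrophils, which had 266.6 CPM against 40.4 to 54.2 in the other saline libraries and 138 to 268 with LPS (log2 change 1.51, SE 0.39, adjusted p = 0.0118). Dendritic cells went the other way, with 75 UMIs in saline and 11 in LPS libraries, 30.1 to 57.7 and 5.08 to 13.8 CPM, which did not overlap but were too few for the test. With the caveat of shared sequence, which touches both genes, *Pira12* behaved alike. It had 16.8 to 43.1 and 76.4 to 92.5 CPM in monocytes (log2 change 1.72, SE 0.23, adjusted p = 0.000188) and 6.21 to 48.5 and 141 to 191 in neutrophils (log2 change 3.04, SE 0.36, adjusted p = 2.55e-05). In microglia 26 UMIs in 45202 saline cells and 271 in 45499 LPS cells were all there was (log2 change 3.18, SE 0.34, adjusted p = 3.62e-06), and the LPS level of 1.07 CPM lay below the 2.97 of LPS T-cells. Free RNA of the LPS libraries held *Pira12* at 6.185 to 11.01 CPM and made up an estimated 15.9 to 23.5% of the UMIs of LPS microglia. With it subtracted, *Pira12* could no longer be fitted in microglia. Whether microglia carry the transcript themselves was not tested. Dendritic cells held 48 saline and 7 LPS UMIs of *Pira12*.

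*Cd300a*, the ITIM-bearing receptor for phosphatidylserine and phosphatidylethanolamine, fell in microglia and macrophages, where the other ITIM-bearing receptors rose. Saline microglia had 169.6, 174, 175 and 182 CPM, a narrow spread, and LPS microglia 30.4, 28.5, 20.4 and 46.1. The groups did not overlap (log2 change -1.70, SE 0.24, adjusted p = 3.71e-05). Macrophages fell from 195, 172, 214 and 181 to 30.7, 40.4, 38.8 and 51.2 CPM, again with no overlap (log2 change -1.89, SE 0.16, adjusted p = 1.65e-07). Dendritic cells had 118, 137, 239.7 and 144 CPM with saline and 13.9, 0, 12.2 and 32.3 with LPS. This was the single call in dendritic cells (log2 change -3.33, SE 0.45, adjusted p = 4.13e-05), beside the shift of *Cd209a* and *Ccr7* given above. Monocytes had 542, 276, 947 and 560.1 CPM with saline and 266, 196, 354 and 277 with LPS, which overlapped. The test was passed with all libraries (log2 change -0.94, SE 0.28, adjusted p = 0.0237) but not without inhibitor replicate 1 (adjusted p = 0.0832) or 2 (0.0726) of the saline group, nor without DMSO replicate 1 (0.0615), DMSO replicate 2 (0.0626) or inhibitor replicate 2 (0.063) of the LPS group, where the log2 fold changes were -0.59, -0.85, -0.92, -0.86 and -0.94. Neutrophils overlapped too (log2 change 0.51, SE 0.38, adjusted p = 0.356), with 606 CPM in the library of 42 cells. Without that library the log2 fold change was 1.02 (adjusted p = 0.0152).

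*Cd300ld*, an activating CD300 receptor, rose in microglia and fell in macrophages and monocytes. Saline microglia had 1.91, 3.09, 1.89 and 1.56 CPM and LPS microglia 13.1, 10.6, 19.6 and 14.5. All LPS values were higher (log2 change 3.54, SE 0.23, adjusted p = 5.08e-08). Macrophages had 88.5, 86.8, 88.2 and 74.6 CPM with saline and 15.3, 21.3, 20.2 and 14.4 with LPS. All LPS values were lower (log2 change -1.90, SE 0.15, adjusted p = 7.32e-08). Monocytes fell from 274, 125, 560.4 and 333 to 49.7, 52.6, 59.3 and 41.2 CPM, also without overlap (log2 change -2.50, SE 0.33, adjusted p = 0.000156). In dendritic cells 67 saline UMIs stood against 3 LPS UMIs. Neutrophils had 90.1, 99.2, 509 and 266 CPM with saline and 93.3, 88.4, 92.5 and 69.3 with LPS, so that the DMSO libraries were alike and the saline inhibitor libraries high. The 509 CPM came from the library with 42 neutrophils. The neutrophil call (log2 change -1.15, SE 0.39, adjusted p = 0.043) was lost without 6 of the 8 libraries in turn, namely both saline inhibitor libraries and all 4 LPS libraries, with adjusted p of 0.0632 to 0.146 and log2 fold changes of -1.21 to -0.72. In the DMSO libraries alone it was 0.08.

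*Cd300lb*, the activating receptor that couples to DAP12, fell in the 3 classes where it was tested. Monocytes had 40.2, 41.6, 114 and 79.7 CPM with saline and 4.71, 12.1, 9.21 and 4.91 with LPS. The groups were apart (log2 change -3.04, SE 0.39, adjusted p = 0.000124). In microglia the values were 2.32 to 2.76 and 0.324 to 0.528 CPM (log2 change -1.79, SE 0.19, adjusted p = 3.44e-06), with a saline level close to that of T-cells in the same libraries (3.06 ± 2.40 CPM, SD, n = 4). Neutrophils overlapped, at 46.6 to 169.7 and 20.0 to 55.1 CPM. Their call (log2 change -1.10, SE 0.34, adjusted p = 0.0296) was lost without either saline inhibitor library (adjusted p = 0.0532 and 0.121), without LPS DMSO replicate 2 (0.0846) and without either LPS inhibitor library (0.0604 and 0.0987), with log2 fold changes of -1.14 to -0.87. In macrophages 37 saline and 8 LPS UMIs were too few for the test. Dendritic cells had 26 UMIs of *Cd300lb* with saline and 0 with LPS. None of 347 LPS dendritic cells, pooled over the mice, held a UMI, which sets no limit across mice or on cells that express the gene. The pooled saline level of 15.6 CPM was 5.31-fold that of 3 counts in the pooled LPS group. This is no lower bound across mice, and 1 saline library held none either.

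**Figure D2:**
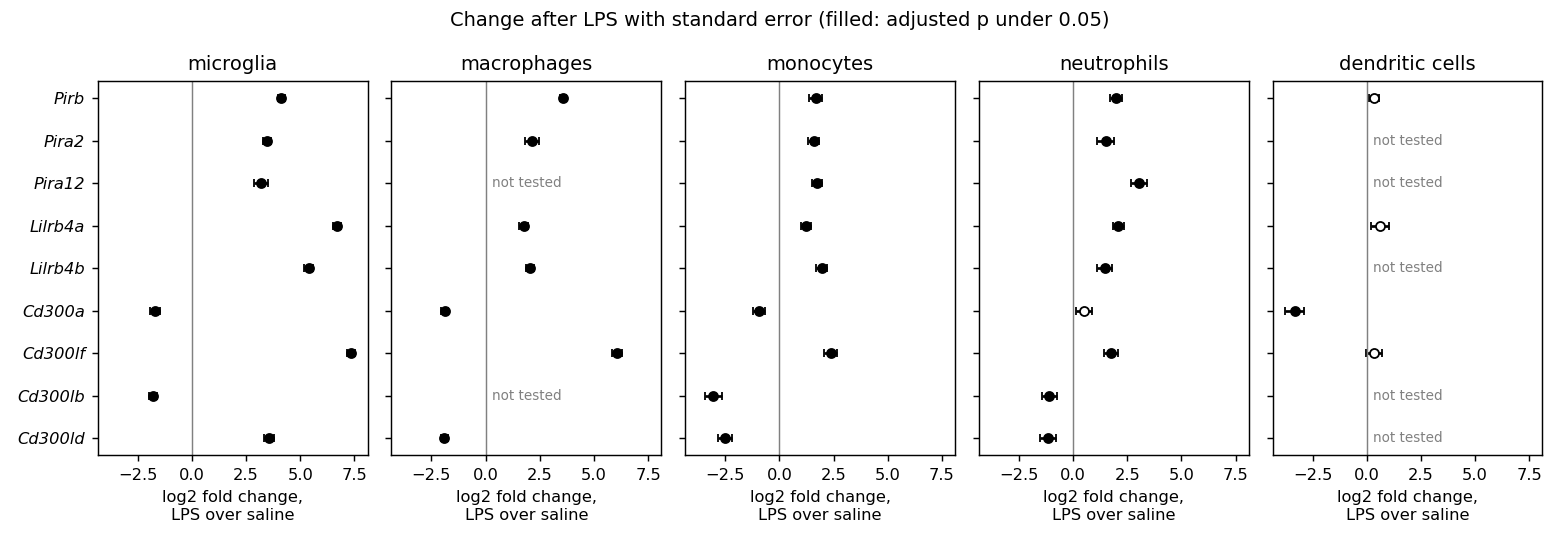
LPS against saline for each gene and class, as the log2 fold change of edgeR's quasi-likelihood fit (x axis) with a standard error derived from the F statistic of its test (bars). Filled points passed an adjusted p of 0.05, open points did not, and combinations with too few UMIs are written as not tested. *Cd300a* and *Cd300lb* lie left of 0 in microglia while the other 7 genes lie right of it, and *Cd300ld* is at 3.54 in microglia and -1.90 in macrophages.

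The order of the classes changed with LPS for several of these genes. *Lilrb4a* in saline libraries was lower in microglia (6.51 ± 0.52 CPM, SD, n = 4) than in any other class without overlap, while macrophages (209), monocytes (159), neutrophils (125) and dendritic cells (83.7) overlapped from one to the next. With LPS, microglia at 397 ± 61.8 CPM overlapped with macrophages (548), neutrophils (476) and monocytes (334), and dendritic cells at 126 were below all of them. *Cd300lf* without LPS was highest in neutrophils (368 CPM, no overlap with the next class, monocytes at 61.6) and lowest in macrophages and microglia (4.13 and 2.97, overlapping). With LPS, neutrophils at 1089 CPM stayed apart, and monocytes (287) overlapped with both microglia (288) and macrophages (199), while all microglia values were above those of macrophages. *Pirb* was lowest in saline microglia (24.9 CPM) and then rose above dendritic cells (259 against 180 CPM with LPS, no overlap). *Cd300a* levels of neighbouring classes overlapped all along the saline order, from monocytes at 581 CPM to dendritic cells at 160. All monocyte values (276 CPM and more) still lay above those of macrophages, microglia and dendritic cells (at most 214, 182 and 239.7). *Cd300ld* kept monocytes and neutrophils at the top in both groups, at 323 and 241 CPM with saline and 50.7 and 85.9 with LPS. *Pira12* became separable with LPS, with neutrophils at 163 CPM above monocytes at 83.7, where both had overlapped in saline libraries at 26.7 and 28.5.

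Microglia, the most numerous class, held more than 50% of the UMIs of 6 of the 9 genes in LPS libraries. Such a share depends on the number and depth of the cells in a class, and microglia were 90701 of the 104843 cells. The share of microglia in the UMIs of all genes was not read beside these values, so none is taken as a trait of a gene. Of the UMIs of *Lilrb4a* in the 5 classes, 25.1% lay in microglia in saline and 89.6% in LPS libraries. For *Cd300lf* these shares were 33.5% and 87.7%, and for *Cd300ld* 11.4% and 73.6%. *Cd300a* went the other way, from 84.7% to 56.2%, as the share of monocytes grew from 7.68% to 34.6%. Monocytes went from 1112 to 4806 cells, while their mean *Cd300a* level went from 581 to 273 CPM. Macrophages had held 48.2% of the *Lilrb4a* UMIs in saline and held 3.38% in LPS libraries, although their own mean level rose from 209 to 548 CPM. Monocytes held 54.0% of *Pira2* and 64.2% of *Pira12* with LPS.

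The share of cells with at least 1 UMI was compared after thinning every cell to 800 UMIs, since LPS microglia were deeper (medians of 4837 to 5539 UMIs per library against 2236 to 3221.5). *Lilrb4a* was then seen in 0.371 to 0.462% of saline and 21.3 to 29.5% of LPS microglia. Endothelial cells, which should lack these myeloid receptors, gave 0.12 to 0.62% and 1.82 to 4.34%, and T-cells gave 1.06 to 2.25% and 6.27 to 9.76%. The share in saline microglia was thus no higher than in these cells, and that in LPS microglia was above both and above LPS NK cells (9.81 to 13.1%). Whether T-cells, B-cells and NK cells carry these transcripts themselves was not tested, so their values are not read as a measure of free RNA. *Cd300lf* was seen in 0.188 to 0.29% of saline and 19.2 to 23.0% of LPS microglia, against 2.18 to 4.63% of LPS T-cells and 1.58 to 2.75% of LPS endothelial cells. *Pirb* was seen in 1.67 to 2.11% and 16.2 to 21.4% of microglia, with LPS T-cells at 4.02 to 7.97%. *Cd300ld* was seen in 0.86 to 1.53% of LPS microglia, against at most 0.679% of T-cells and 0.124% of endothelial cells. *Lilrb4b* was seen in 3.12 to 4.22% of LPS microglia, above LPS endothelial cells (at most 0.611%) and B-cells (at most 1.38%), within the 2.16 to 7.16% of LPS T-cells and below the 6.13 to 8.19% of LPS NK cells. *Pira2* was seen in 0.534 to 0.665% of LPS microglia, above LPS endothelial cells (at most 0.447%) but within the ranges of LPS T-cells (0 to 0.717%) and B-cells (0 to 1.02%). *Cd300a* was seen in a mean of 12.7% of saline microglia, above the 2.39 to 4.04% of T-cells, and in 1.68 to 3.67% of LPS microglia, beside 0.0952 to 2.15% of LPS T-cells and 0.156 to 2.04% of LPS endothelial cells. Median depth was 2877 to 4575 UMIs in saline and 2072.5 to 3351 in LPS T-cells. Without thinning, the mean share of *Lilrb4a* in microglia was 1.37% with saline and 74.8% with LPS. The free RNA in barcodes of 1 to 99 UMIs followed the same pattern, with *Lilrb4a* at 22.6 to 42.5 CPM in saline and 263 to 435 in LPS libraries. With the expected free RNA subtracted, the 8 genes that could still be fitted in microglia, all but *Pira12*, kept their calls. The log2 fold changes then were 8.86 for *Cd300lf*, 4.29 for *Pirb*, 5.26 for *Cd300ld* and -1.85 for *Cd300a*.

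**Figure D3:**
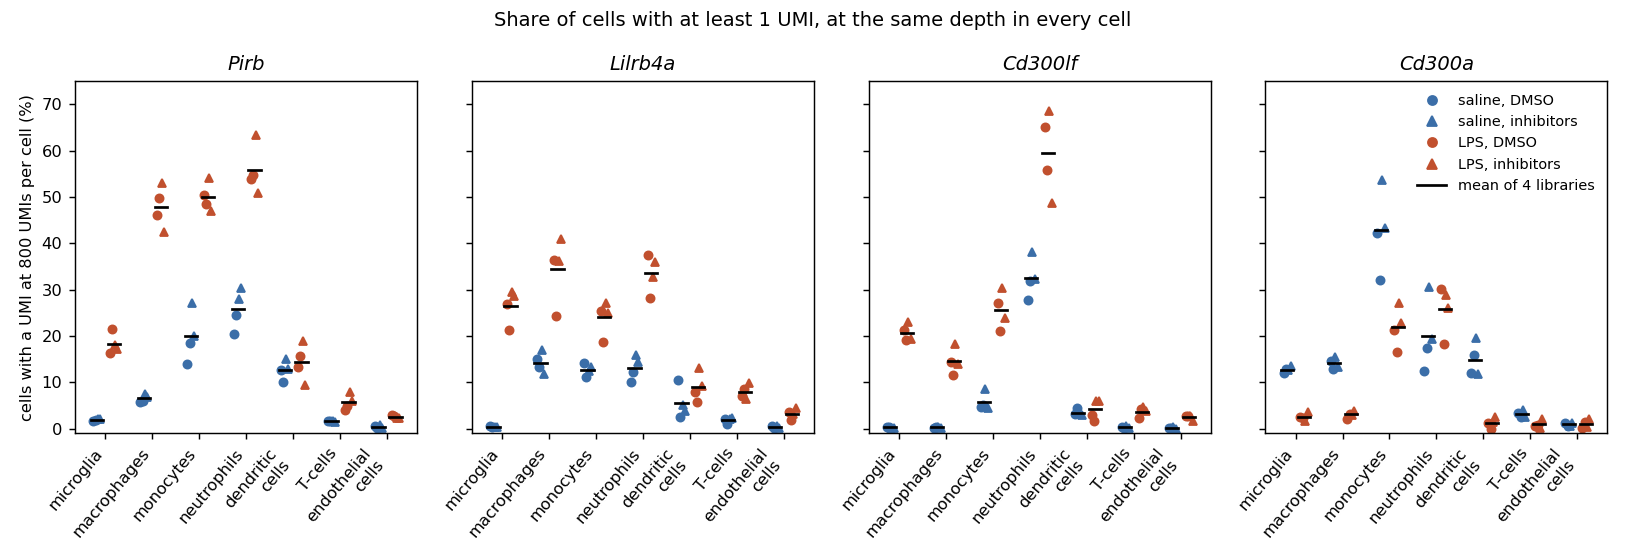
Percent of cells with at least 1 UMI (y axis) of *Pirb*, *Lilrb4a*, *Cd300lf* and *Cd300a* after thinning to 800 UMIs, in the 5 myeloid classes and in T-cells and endothelial cells (x axis), 1 point per library. Saline libraries are blue and LPS libraries orange. *Lilrb4a* in microglia is at most 0.462% with saline and 21.3 to 29.5% with LPS, above the LPS T-cells at 6.27 to 9.76%.

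Whether the LPS change itself differed between microglia and another class was tested in 1 fit of both classes with the mouse as a block. The fit takes the same spread between libraries for a gene in both classes. Its SEs and p-values can therefore be too small where a class has few cells. For *Cd300a* in neutrophils the SE of the difference was 0.25, below the 0.38 of the neutrophil change fitted alone. Of 36 differences 28 passed edgeR's test. Of these, 6 were against macrophages, where 29.2% of all genes passed, 7 against monocytes (23.5%), 7 against neutrophils (19.7%) and 8 against dendritic cells (18.1%). These shares are over 17915, 18828, 17792 and 17146 genes, whereas 10540, 11730, 6683 and 4355 were tested in those classes alone. Genes that entered through microglia are thus part of the shares, and a share without them was not read. The genes too low to be tested in macrophages (*Pira12* and *Cd300lb*) and in dendritic cells (*Pira2*, *Pira12*, *Lilrb4b*, *Cd300lb* and *Cd300ld*) entered these fits through microglia, so nothing is read from the 4 of them that passed against dendritic cells. The other 4 passes there were *Pirb*, *Lilrb4a*, *Cd300a* and *Cd300lf*. The change of *Lilrb4a* minus that in microglia was -4.93 ± 0.13 on the log2 scale in macrophages (SE, adjusted p = 2.01e-41) and -5.10 ± 0.25 in monocytes (1.33e-12). For *Cd300ld*, which fell in macrophages and monocytes, the difference from microglia was -5.43 ± 0.20 (adjusted p = 2.53e-33) and -5.60 ± 0.38 (2.63e-10). *Cd300lf* differed by -1.28 ± 0.31 in macrophages (adjusted p = 0.000663) and by -4.60 ± 0.31 in monocytes. *Cd300a* had a weaker fall in monocytes than in microglia (difference 1.25 ± 0.31, adjusted p = 0.00435), and its change in neutrophils lay 2.73 ± 0.25 above that in microglia (5.26e-25). In macrophages its difference was -0.11 ± 0.14 (adjusted p = 0.65), with a sign that turned under several alternatives. *Pirb* differed less between macrophages and microglia (-0.50 ± 0.12, adjusted p = 0.000499). That call was lost without saline DMSO replicate 1 (-0.25, adjusted p = 0.146), without saline inhibitor replicate 1 (-0.33, 0.0627), with library size alone (-0.15, 0.335), with inhibitor libraries only (-0.37, 0.0923) and with immediate-early cells removed (-0.25, 0.19). *Pira2* lost its difference in macrophages (-1.24 ± 0.36) without saline inhibitor replicate 1 (-0.79, adjusted p = 0.174), with library size alone (-0.90, 0.0597), with DMSO libraries only (-0.73, 0.518) and with free RNA subtracted (-1.44, 0.067). The macrophage difference of *Cd300lf* was lost with inhibitor libraries only (-1.08, adjusted p = 0.0905). With free RNA subtracted, the neutrophil differences of *Pirb* (-2.09, adjusted p = 0.0972) and *Pira2* (-1.86, 0.149) and the monocyte difference of *Cd300a* (1.27, 0.0862) were lost. *Pira12* and *Cd300lb* did not pass in macrophages, monocytes or neutrophils. For monocytes this turned for *Pira12* in 5 alternatives, among them without saline DMSO replicate 2 (-1.55, adjusted p = 0.00435) and by DESeq2 (-1.27, 0.045), and for *Cd300lb* in 3, among them without LPS DMSO replicate 2 (-1.38, 0.0127). The dendritic cell difference of *Cd300a* (-1.19, adjusted p = 0.0176) was lost in 7 of 20 alternatives: without saline inhibitor replicate 1 (-0.87, 0.175), by DESeq2 (-1.20, 0.113), with library size alone (-0.96, 0.0741), with inhibitor (-1.33, 0.0533) or DMSO libraries only (-1.56, 0.122), from 1500 UMIs per cell (-1.09, 0.0522) and with immediate-early cells removed (-1.12, 0.0927).

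The dissociation treatment moved none of the 9 genes past the test. Between DMSO and inhibitor libraries, adjusting for LPS, 0 of 38 combinations passed edgeR's quasi-likelihood test, 4 had an unadjusted p under 0.05 and 0 passed DESeq2. Of all genes, 816 of 20282 had such an unadjusted p in microglia, 426 of 10540 in macrophages, 630 of 11730 in monocytes, 269 of 6683 in neutrophils and 261 of 4355 in dendritic cells. The adjusted test was passed by 0.380% of all genes in microglia, 0.484% in macrophages, 0.0512% in monocytes, 0.105% in neutrophils and 0.459% in dendritic cells. The log2 differences, DMSO minus inhibitors, lay between -0.18 and 0.20 for the 9 genes in microglia and between -0.64 and 0.11 for 7 in macrophages. They were below 0 for all 9 in monocytes (-0.58 to -0.23) and in neutrophils (-0.67 to -0.18), and lay between -0.78 and 0.21 for 4 in dendritic cells. The share of all genes below 0 was not read beside these signs. Saline monocytes held *Mpo*, *Elane* and *Prtn3* at 9229 and 13520 CPM with DMSO and at 93.2 and 2359 with inhibitors. The part of this makeup in the monocyte values was not tested. An interaction test asked whether the LPS change depended on the dissociation. It gave 0 of 43 by edgeR's quasi-likelihood test, 9 at an unadjusted p under 0.05 and 0 by DESeq2, beside 0.0224% of all genes in microglia, 0% in macrophages, 0.00759% in monocytes, 0% in neutrophils and 0.0528% in dendritic cells. The 9 lay in microglia (1), monocytes (4) and neutrophils (4), where 420 of 22360, 860 of 13178 and 502 of 8207 genes had an unadjusted p under 0.05. *Cd300ld* in neutrophils had the smallest of these p, with an LPS change 2.04 ± 0.48 higher on the log2 scale with DMSO (adjusted p = 0.599). With the capture batch as a replicate block it was 2.01 (adjusted p = 0.0242) and the only one of the 43 to pass. The highest *Cd300ld* level in saline neutrophils, 509 CPM, came from the inhibitor library with 42 neutrophils. In microglia the inhibitor libraries had 19.6 and 14.5 CPM of *Cd300ld* with LPS against 13.1 and 10.6 with DMSO (difference of LPS changes -1.05 ± 0.36, unadjusted p = 0.0126 by edgeR's quasi-likelihood test).

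The balance between a receptor and its close relative also differed between the groups in some classes, as UMIs of one per 100 UMIs of the other in the same sum. *Lilrb4b* per 100 *Lilrb4a* in microglia was 24.8 to 33.3 with saline and 11.2 to 12.7 with LPS, without overlap. In monocytes it moved the other way, with 14.7 to 27.6 in saline and 34.7 to 43.5 in LPS libraries. In macrophages it was 20.6 to 24.8 and 25.1 to 30.3. *Pira2* per 100 *Pirb* in microglia was 4.06 to 5.4 with saline and 2.19 to 3.46 with LPS. In monocytes the ranges of 20.3 to 25.9 and 17.9 to 25.4 overlapped, and in dendritic cells 21.9 to 35.7 stood against 2.63 to 9.68. These ratios were not tested. Those of microglia rest on levels close to those of T-cells or lower, with saline and, through *Pira2* and *Lilrb4b*, also with LPS. The caveat of shared sequence touches *Lilrb4a*, *Lilrb4b* and *Pira2* in them.

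**Figure D4:**
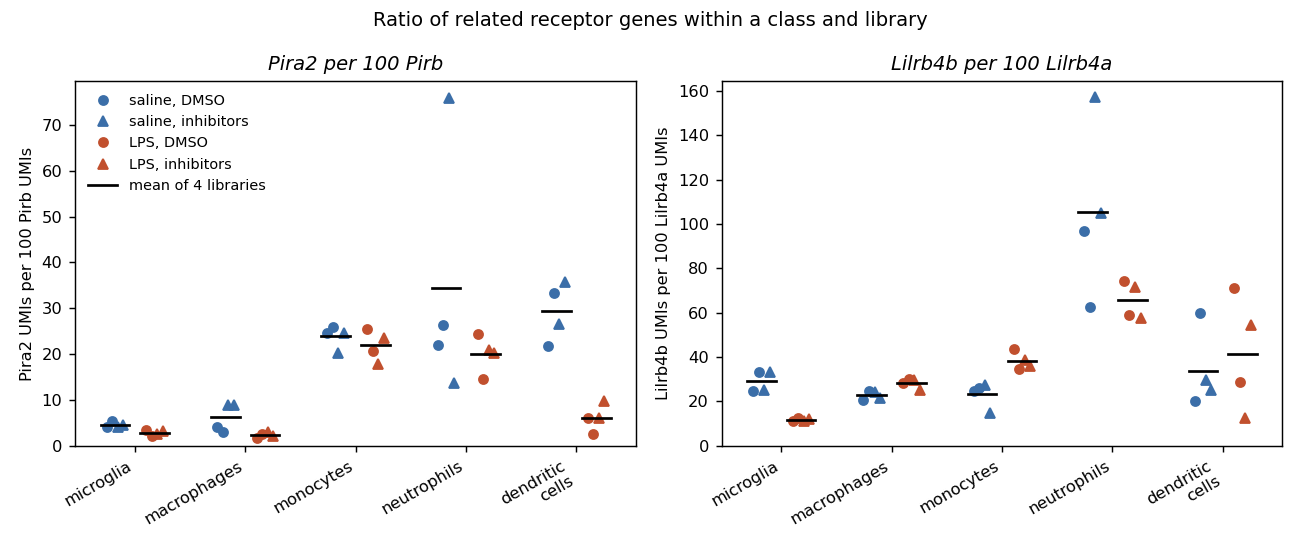
UMIs of *Pira2* per 100 UMIs of *Pirb* and of *Lilrb4b* per 100 of *Lilrb4a* in each library (y axis), by cell class (x axis). Saline libraries are blue and LPS libraries orange. For *Lilrb4b* the LPS libraries lie below the saline libraries in microglia (11.2 to 12.7 against 24.8 to 33.3) and above them in monocytes.

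The signaling partners of these receptors were grouped by role. Their counts stand beside the shares of all genes called in each class. These were 30.1% higher and 35.4% lower in microglia, 25.7% and 27.4% in macrophages and 13.6% and 15.5% in monocytes. In neutrophils they were 11.5% and 10.7%, and in dendritic cells 18.9% and 18.0%. With lists this short nothing particular to a list is read from the counts. Over all these partners 5 were called in monocytes, 1 higher and 4 lower, but 11 with the capture batch as a replicate block (6 higher, 5 lower) and 11 by DESeq2 (7 and 4), so the monocyte counts depend on the fit. Counts in the other classes moved as well. With library size alone the partners called went from 15 higher and 7 lower to 11 and 9 in microglia and from 13 and 6 to 7 and 8 in macrophages. In neutrophils 11 were called, and 6 with inhibitor libraries only. In dendritic cells 10 were called, and 4 with DMSO libraries only or with immediate-early cells removed. Of the adaptors of activating forms (*Fcer1g*, *Tyrobp* and *Hcst*), 2 of 3 rose in microglia (list median 1.35, all genes -0.19), and 2 of 3 were called higher and 1 lower in macrophages. The lower one there, *Tyrobp* (-0.56), lost the call without LPS DMSO replicate 1 (-0.47, adjusted p = 0.0502), without LPS inhibitor replicate 1 (-0.46, 0.051) and with DMSO (-0.41, 0.253) or inhibitor libraries only (-0.68, 0.0542). *Fcer1g*, the Fc receptor gamma chain, went from 2057 to 3872 CPM in microglia (log2 fold change 1.66 ± 0.19 SE, adjusted p = 5.64e-06) and rose by 1.04 ± 0.15 in macrophages and by 1.49 ± 0.22 in dendritic cells. *Tyrobp*, which encodes DAP12, had 3299 and 2384 CPM in microglia, and after scaling did not pass (0.28 ± 0.18, adjusted p = 0.194). No adaptor passed in monocytes (0 of 3), 1 of 3 was called higher in neutrophils, and 1 rose and 1 fell in dendritic cells. The neutrophil one, *Fcer1g* (1.33), lost the call with inhibitor libraries only (1.21, adjusted p = 0.0551) and with free RNA subtracted (0.82, 0.389). Among the phosphatases *Ptpn6*, which encodes SHP-1, rose in microglia by 1.36 ± 0.11, whereas *Inpp5d*, which encodes SHIP-1, fell there from 605 to 172 CPM (-1.08 ± 0.14, adjusted p = 1.73e-05). Of the 3 phosphatase genes 2 were called higher and 1 lower in macrophages, but with small values that changed with the fit. There *Ptpn11*, which encodes SHP-2, was at 0.53 and lost the call by DESeq2 (0.57, adjusted p = 0.0672) and without each of 6 libraries in turn, *Ptpn6* went from 0.44 to 0.08 with library size alone (adjusted p = 0.602), and *Inpp5d* at -0.39 lost its call without each of 6 libraries. None of 3 passed in monocytes, 1 of 3 rose in neutrophils and both tested were called lower in dendritic cells, where *Ptpn6* (-0.99) lost the call with DMSO libraries only (-0.83, adjusted p = 0.267) and without each of 3 libraries (adjusted p = 0.108 to 0.125).

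Of 7 kinases and proximal signaling genes 4 rose and 2 fell in microglia, and the same counts held in macrophages. *Fgr*, a Src family kinase, went from 6.23 to 151 CPM in microglia (5.33 ± 0.21, adjusted p = 7.47e-10) and from 2.71 to 128 in macrophages (6.04 ± 0.25, 1.77e-10). *Plcg2*, a phospholipase downstream of activating receptors, fell in microglia (-0.90 ± 0.09) and in dendritic cells (-1.89 ± 0.30). *Lyn*, which phosphorylates ITIMs, had 548 and 512 CPM in microglia and rose by 0.65 ± 0.13, but was at -0.10 with library size alone. In monocytes 1 of 7 rose and 1 fell, in neutrophils 3 of 7 rose, and in dendritic cells 2 of 6 were called lower. Of these, *Syk* (-0.81) lost the call without saline inhibitor replicate 2 (-0.74, adjusted p = 0.0606), without LPS DMSO replicate 2 (-0.56, 0.0926) and in 4 other alternatives.

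Of 11 genes for ligands described for these receptors 7 rose and 4 fell in microglia, and 5 of 9 were called higher and 2 lower in macrophages. There *B2m* (0.25, adjusted p = 0.0558), *H2-D1* (0.29, 0.089) and *Mag* (0.53, 0.0748) lost the call with library size alone, and these genes and *Fn1* lost it with inhibitor libraries only (adjusted p = 0.204 to 0.341). The MHC class I gene *H2-K1* rose in microglia by 1.43 ± 0.15 and in macrophages by 1.24 ± 0.16. *Bst2*, an interferon-induced surface protein, went from 196 to 495 CPM in microglia (2.08 ± 0.19) and from 38.1 to 230 in neutrophils (3.01 ± 0.30, adjusted p = 7.28e-06). *Apoe* fell from 35410 to 6118 CPM in macrophages (-2.18 ± 0.20) and from 1169 to 166 in monocytes (-2.63 ± 0.32). *Mag*, a myelin gene, was called higher in microglia (0.65 ± 0.11) but was at -0.10 with library size alone. In monocytes 0 of 9 rose and 3 fell, in neutrophils 4 of 7 were called higher and 2 lower, and in dendritic cells 3 of 7 higher and 1 lower. In neutrophils *Alcam* (-1.17) lost the call in 9 alternatives, 4 of them with 1 library left out (adjusted p = 0.0665 to 0.106). Each dendritic cell call was lost in some alternative. *Apoe* (-1.24) lost it in 10, 5 of them with 1 library left out (adjusted p = 0.052 to 0.0985), *H2-D1* in 5, among them without either saline DMSO library (0.0697 and 0.063), *B2m* in 4 and *H2-K1* in 2.

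Other paired receptors, 31 of 39 listed genes matched by symbol, also moved both ways: 14 of 26 tested rose and 10 fell in microglia, 12 and 5 of 19 in macrophages, 7 and 10 of 24 in monocytes, 8 and 4 of 19 in neutrophils, and 4 and 3 of 10 in dendritic cells. *Pilrb1*, an activating paired receptor, went from 0.671 to 124 CPM in microglia (8.32 ± 0.18). *Trem1*, an amplifier of myeloid inflammation, went from 0.657 to 79.5 (7.73 ± 0.26), and *Tarm1*, an activating receptor of the same gene cluster as the PIR genes, from 0.383 to 43.1 (7.48 ± 0.25). *Lilra5* fell in macrophages from 81.8 to 2.75 CPM (-4.52 ± 0.21, adjusted p = 5.03e-10). *Cd300lg* fell in monocytes from 26.8 to 2.64 (-3.23 ± 0.33). *Fcgr4*, an activating Fc receptor, rose in neutrophils from 252 to 1301 (2.56 ± 0.31). Of the 18 immediate-early and heat shock genes that mark dissociation, 5 rose and 2 fell in microglia, 1 and 3 in macrophages, 1 and 7 of 17 in monocytes, 4 and 2 of 15 in neutrophils, and 0 and 9 of 16 in dendritic cells. The counts of both lists stand beside the shares of all genes given above for each class, and nothing particular to a list is read from them.

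Genes with the most similar pattern were read over the 40 sums of 5 classes in 8 libraries, among 11279 genes, as Pearson's r of log2(CPM + 1). These points share libraries and depth, so r is given as a description. *Pirb* was closest to *Slfn2* (0.954), *Ifitm2* (0.921) and *Fpr3*. *Lilrb4a* and *Lilrb4b* were both closest to *Slfn2* (0.884 and 0.909). *Pira2* and *Pira12* had each other among their 3 closest genes (0.917). *Cd300a* was closest to *Myo1f* (0.923) and *Mapk14* (0.909). *Cd300lf* was closest to *Il1r2* (0.962), a neutrophil marker of the gate, then to the paired receptor gene *Pilrb2* (0.93) and to *Mcemp1* (0.924). *Cd300lb* was closest to *Ppp2r5a* (0.933), and *Cd300ld* to *Slc66a2* and *Rasgrp4* (both 0.871).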

How the data were processed

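CD45+ cells of 8 mouse brains were profiled by PIPseq, and the authors deposited raw counts of UMIs per gene and barcode, made with PIPseeker and STAR on GENCODE GRCm39, without normalization or cell selection. The submitters' processing notes name Seurat 4, whose output was not used. Cells with 800 to 44999 UMIs, 250 to 6499 genes and under 5% mitochondrial counts were kept. They were assigned to 19 classes from 149 markers by log-likelihood, with a margin of 3 over the next class and at least 2 markers detected; the gate was set after the data had been seen, and no receptor or partner gene was a marker. Class names are thus rebuilt and may differ from the study's.

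UMIs were summed per library and class (at least 10 cells), and genes that filterByExpr kept were scaled by TMM factors and tested with edgeR (4.0.16, R 4.3.3; quasi-likelihood fit). P-values were adjusted over all genes tested in the class. Each SE is the absolute log2 fold change divided by the square root of the F statistic of edgeR's test. All 9 receptor genes were named whatever their values. From the partner lists, called genes could be named, and of the other paired receptors the 3 with the largest fold change per class. The members and lists were chosen with earlier results of these data known. Replicates are separate mice. A replicate number marks a capture batch in the labels and so pairs the libraries. Same-numbered libraries deviated together with r of 0.0887 to 0.542 in microglia, -0.00424 to 0.334 in macrophages, 0.232 to 0.406 in monocytes, 0.193 to 0.323 in neutrophils and -0.045 to 0.116 in dendritic cells.

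Alternatives were DESeq2 1.42.0, RLE factors, no filter on low counts, the dissociation treatment as a covariate, the replicate block, DMSO or inhibitor libraries alone, each library left out, at least 1500 UMIs per cell, a stricter margin of 6, removal of likely doublets, removal of cells with a high immediate-early and heat shock share, and subtraction of the expected free RNA (barcodes with 1 to 99 UMIs). Library size alone was added after the data had been seen. Scrublet (scanpy 1.11.5) marked 0.0224 to 0.586% of cells by its own threshold, so doublets stayed in, and the alternative removed the 8.0 to 9.38% of each library's cells with the highest scores. Shares of cells were read after thinning to 800 UMIs, and p-values and spreads rest on 4 libraries per group. The LPS test in each class and the difference between macrophages and microglia were run on simulated data with known changes. The simulated difference held no effect of the mouse, and the other tests were not simulated. Sequences come from RefSeq (GRCm38.p6) and GENCODE, and no coordinates were carried between builds.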

Additional observations from a re-analysis of the deposited data

Results flagged for a closer look

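In 2 of 89 groups of 4 libraries, 1 value lay far from the other 3, where chance alone would pick out about 1 group in 20. *Cd300ld* in saline macrophages had 74.62 CPM in inhibitor replicate 2, against 86.8 to 88.5 in the other saline libraries, all of which lay above the LPS libraries at 14.4 to 21.3 CPM. *Pira2* in saline neutrophils had 266.6 CPM in inhibitor replicate 1, the library with 42 neutrophils, against 40.4 to 54.2 in the other 3.

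The remaining results were picked out because the LPS change of a gene differed between a class and microglia in the test of the difference itself (edgeR's quasi-likelihood test with the mouse as a block, 28 of 36). On the log2 scale, as the change in the class minus that in microglia, the values in macrophages were -0.502 for *Pirb*, -1.24 for *Pira2*, -4.93 for *Lilrb4a*, -3.36 for *Lilrb4b*, -1.28 for *Cd300lf* and -5.43 for *Cd300ld*. In monocytes they were -2.01 for *Pirb*, -1.5 for *Pira2*, -5.1 for *Lilrb4a*, -3.11 for *Lilrb4b*, 1.25 for *Cd300a*, -4.6 for *Cd300lf* and -5.6 for *Cd300ld*. Neutrophils gave -1.78 for *Pirb*, -1.58 for *Pira2*, -4.23 for *Lilrb4a*, -3.5 for *Lilrb4b*, 2.73 for *Cd300a*, -5.25 for *Cd300lf* and -4.2 for *Cd300ld*. Dendritic cells gave -3.35 for *Pirb*, -4.97 for *Pira2*, -4.77 for *Pira12*, -5.61 for *Lilrb4a*, -3.77 for *Lilrb4b*, -1.19 for *Cd300a*, -6.67 for *Cd300lf* and -6.83 for *Cd300ld*, with 11, 7 and 3 UMIs of *Pira2*, *Pira12* and *Cd300ld* left in the LPS sums. Those of *Pira2*, *Pira12*, *Lilrb4b* and *Cd300ld* are descriptions, since these genes were too low for the test in dendritic cells and entered the fit through microglia, and that of *Pira12* came to -0.21 (adjusted p = 0.873) with free RNA subtracted. Microglia started from levels at or below those of T-cells for *Pira2*, *Pira12*, *Lilrb4a*, *Lilrb4b*, *Cd300lf* and *Cd300ld*. The part of free RNA and of the changed makeup of the classes in these differences was not tested beyond the subtraction given in the report.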

How the results depend on the processing

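All LPS calls in microglia and macrophages kept their direction and their side of the threshold in the 197 and 154 refitted values. *Pira12* in microglia with free RNA subtracted is not among these values, since it could no longer be fitted. In monocytes 10 of 198 values lost the call, in neutrophils 24 of 198 did and 2 turned in sign, and the cause was not tested except where fewer libraries or UMIs were used. In dendritic cells 2 values gained a call and 4 turned in sign. Of the differences from microglia, 10 values lost the call in macrophages, 1 in monocytes, 2 in neutrophils and 8 in dendritic cells, while 8 gained one in monocytes, 1 in neutrophils and, with its sign turned, 1 in macrophages (*Pira12*, with free RNA subtracted). The gains in monocytes were *Pira12* by DESeq2 (-1.27), with RLE size factors (-1.23), without the filter on low counts (-1.04), with inhibitor libraries only (-1.61) and without 1 library, and *Cd300lb* without the filter (-0.94), with inhibitor libraries only (-1.61) and without 1 library; that in neutrophils was *Cd300lb* with library size alone (1.34). Receptor genes called in neutrophils were 8 with all libraries, 5 with inhibitor libraries only and 4 with the expected free RNA subtracted. In dendritic cells 1 was called, against 6 without the filter on low counts, 4 with inhibitor libraries only and 1 to 4 with 1 library left out. The replicate block changed 1 call, the interaction of *Cd300ld* in neutrophils (1 against 0), and no other call of the 9 genes. Turned in sign were, among changes that had not passed, *Pirb* in dendritic cells with immediate-early cells removed (-0.01512), *Lilrb4a* there with free RNA subtracted (-0.07681), *Cd300lf* there without 1 library (-0.02621 to 0.6073) and without likely doublets (-0.05545), and *Cd300a* in neutrophils with inhibitor libraries only (-0.01424); of calls, *Cd300ld* in neutrophils with DMSO libraries only (0.08003). Differences from microglia that had not passed and turned were, in macrophages, *Pira12* with library size alone (0.03538), without 1 library (-0.6745 to 0.1684, the latter without saline DMSO replicate 2) and with free RNA subtracted (4.111, adjusted p = 0.0365); *Cd300a* by DESeq2 (0.03165), RLE (0.01194), library size alone (0.2461), no filter (0.0457) and without 1 library (-0.304 to 0.1254, with 4 of 8 values above 0); and *Cd300lb* without 1 library (-0.2507 to 0.3982) and without likely doublets (-0.705). *Pira12* turned in monocytes with free RNA subtracted (3.436) and in neutrophils with inhibitor libraries only (-1.133) or without 1 library (-0.4595 to 0.9628). Over all genes, calls in monocytes went from 3419 to 1273 with DMSO libraries only and 1629 with free RNA subtracted, in neutrophils from 1483 to 585 with inhibitor libraries only, 853 with DMSO libraries only, 967 with immediate-early cells removed and 414 with free RNA subtracted, in macrophages from 5598 to 3445 and in dendritic cells from 1608 to 906 with DMSO libraries only, and to 990 in the latter with immediate-early cells removed. In dendritic cells 4 of 9 genes had enough UMIs to be tested.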
